A study of Mus musculus with 27 samples.

Results

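The effect that DOX had in common on 4 sorted cell populations was measured by pooling them in 1 model, 8 arrays of cells given DOX for 2 days against 9 arrays of untreated cells, out of 27 arrays in the series. All cells came from mouse A2lox embryonic stem cells carrying a Flag-tagged dominant-negative FOS (dnFOS) cassette that DOX switches on, a line derived from picked clones, so that the controls carried the cassette too and differed only in not receiving DOX. Embryoid bodies were grown for 3.75 days, FLK1+ cells were purified and placed in blast culture with or without 1 µg/ml DOX, and the populations were then separated by their surface markers. They were vascular smooth muscle cells (SM, 3 untreated and 2 DOX arrays), early hemogenic endothelium (HE1, KIT+TIE2+CD41-, 2 and 2), late hemogenic endothelium (HE2, KIT+TIE2+CD41+, 2 and 2) and hematopoietic progenitors (HP, KIT+TIE2-CD41+, 2 and 2). Among these arrays none came from DOX-treated cells that lack the cassette, so an effect of dnFOS and an effect of DOX itself cannot be told apart.

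AP-1 is a family of dimeric transcription factors, built from FOS, JUN and related ATF proteins, that binds regulatory DNA when growth factors, stress or cytokines signal through MAP kinases. Classical AP-1 targets encode proteases and their receptors, adhesion and migration proteins, and cytokines. dnFOS pairs with JUN proteins through its leucine zipper and keeps the pair off DNA, and therefore acts on many AP-1 dimers at once.

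A level is given throughout as the log2 signal of the gene's probe less the 75th percentile of log2 signals on the same array, and an effect as the level with DOX minus the level without. A gene was called when limma's Benjamini-Hochberg adjusted p for the common DOX term was under 0.05 and the change was at least 2-fold. It was taken to move alike when, in addition, its effect had the same sign in each of the 4 populations and its probe was measured in each, that is, well above background on every array of at least one treatment group. Nothing says whether replicates came from separate cultures, so p-values measure the spread between these samples only.

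The 75th percentile of the signal was lowest, 73.2, in an HE2 sample without DOX and highest, 604, in an SM sample with DOX, and 51.0% to 89.6% of probes were well above background. Marker genes followed the labels in part. The smooth muscle gene Cnn1 had a mean level of 4.83 in untreated SM cells against 1.57 in HE1, the endothelial cadherin Cdh5 was highest in HE1 at 5.66, and Runx1, which drives the endothelial-to-hematopoietic transition, was at 4.09 in HE2 and 4.56 in HP against -0.05 in HE1. The blood regulator Spi1 was not well above background on any of the 5 SM or 4 HE1 arrays. Smooth muscle actin, Acta2, was also at 5.87 in untreated HP cells, and Runx1 was at 1.22 in untreated SM. The repressor Gfi1 ran against Runx1, at 1.89 in untreated HE1, 1.17 in HE2 and 0.36 in HP. Gata1, a hematopoietic transcription factor, was at 1.14 in untreated SM against 0.29 in HE2, and Cdh5 was at 3.50 in untreated HP. Of the sorting markers, Kit was at -0.39 in untreated SM against 3.65 in HE1. Tek (TIE2) was at 2.48 in untreated HE1 against -0.42 in HP. Itga2b (CD41) was higher in untreated HE2 and HP, at 3.21 and 3.13, than in HE1. Both SM arrays of pair 2 stood apart. Their Cdh5 levels were 4.34 untreated and 4.74 with DOX, against -1.38 to -0.41 on the other 3 SM arrays, and the summed relative signal of 28 endothelial genes was 582 and 956 against 47.3 to 55.2. Their Cnn1 levels, 5.27 and 4.30, were not lower than those of the other SM arrays of the same treatment. The part of these endothelial markers in the results was not tested.

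Hprt, next to which the dnFOS cassette was inserted, was read first as a check of the labels. It rose on every array with DOX, with log2 effects of 3.50 for SM, 3.22 for HE1, 2.91 for HE2 and 2.13 for HP. Untreated SM arrays had levels of 1.07, 0.84 and 1.11 and DOX arrays 3.84 and 5.17, and the groups did not overlap in any population. The pooled effect was 2.96 ± 0.30 (SE, adjusted p = 0.000637), the lowest p-value of all genes tested. What raises the Hprt signal was not tested.

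Of 25902 genes and transcripts tested, 44 fell (0.170%) and 10 rose (0.0386%) across the 4 populations. Of these, 32 fell alike and 9 rose alike, Hprt among the latter. Falls made up 81.5% of the calls, although at an unadjusted p under 0.05 there were 1172 lower and 1575 higher genes. That split depended on scaling, with 23 lower and 11 higher calls after quantile normalization, 24 and 14 in the authors' processed values, and 6 and 1 with median scaling, or 67.6%, 63.2% and 85.7% falls. Leaving out 1 array gave 20 to 59 calls in all. Without both SM arrays of pair 2, an alternative added after seeing the data, 27 genes fell and 7 rose, with 19 and 6 alike. All 41 alike genes kept their sign, which was in part fixed by their choice on these same arrays. All 13 called genes left out of the alike group failed because a probe was not measured in every population, and none because an effect changed sign.

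The 17 arrays lay on 3 slides, A, B and C, each scanned on a day of its own, and the number of calls rested on how arrays were blocked. The replicate numbers paired the samples, and with the pair as a block 84 genes fell and 52 rose, with 36 of the 41 alike genes among the alike genes of that fit. The 5 that missed it had adjusted p-values just above the threshold, 0.0519 for Slc32a1, Nfkbiz and the chromosome 13 probe, 0.0658 for AK160312 and 0.0805 for Ncf1 (limma). With the array slide as a fixed block 103 fell and 68 rose, and as a random block 134 fell and 64 rose, each with all 41. Slide A alone (3 DOX and 4 untreated arrays) gave 0 calls with limma (295 lower and 186 higher genes at an unadjusted p under 0.05), and slide B alone (4 and 4) gave 131 calls, 24 of them rises. The sign of the alike genes on each slide was in part fixed by how they were chosen, on these same arrays, and is given as a description. All 32 falling genes were lower with DOX on slides A and B, with median effects of -1.61 and -2.28, and 31 of 32 on slide C, which held 1 pair of SM arrays. There the transcriptional regulator Nfkbiz was at 0.02. Among the 9 rising genes only Slc32a1 changed sign on slide C, to -0.26.

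**Figure D1:**
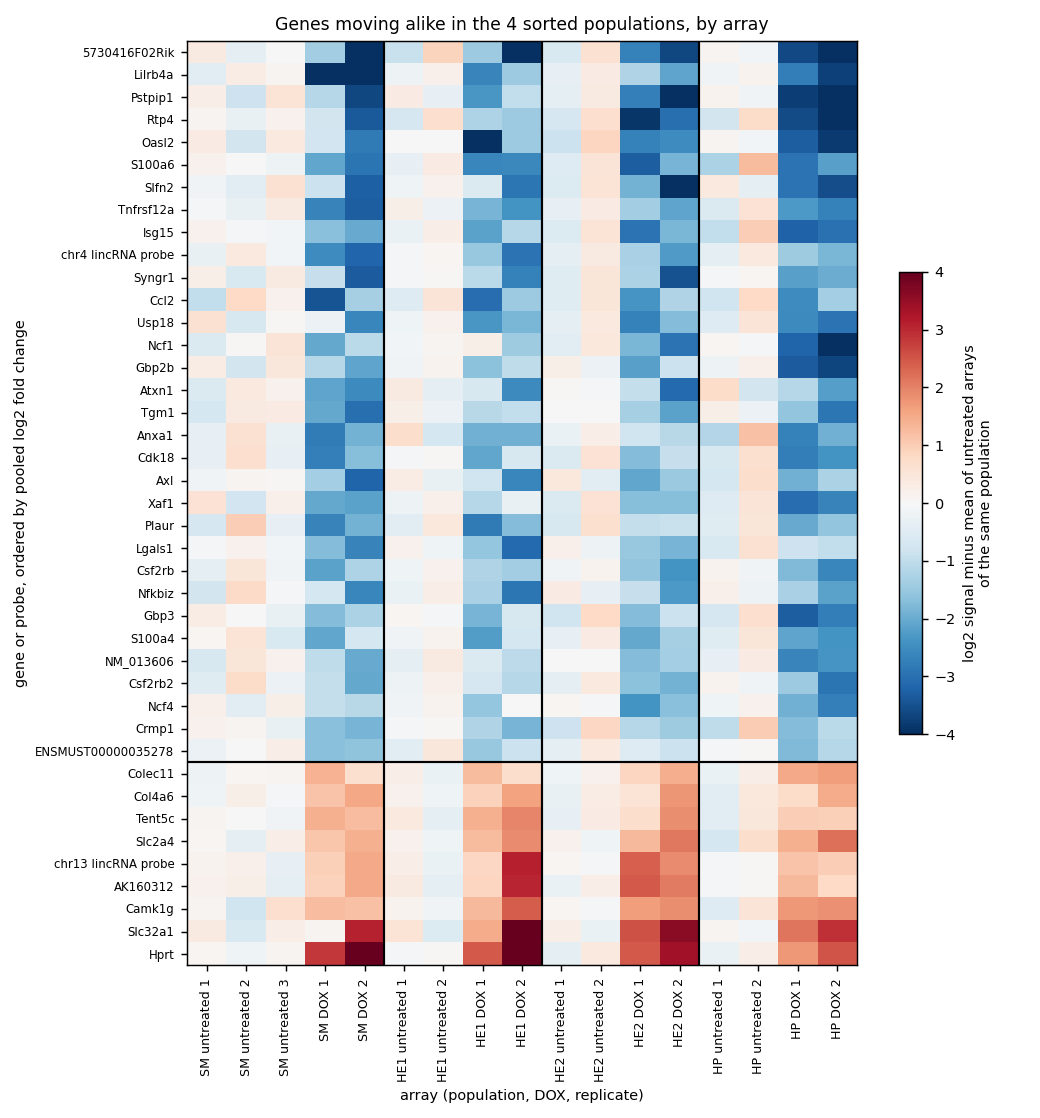
Level of each of the 41 alike genes and probes (rows, ordered by pooled log2 fold change) on each of the 17 arrays (columns), as log2 signal minus the mean of the untreated arrays of the same population, blue for lower and red for higher, with colours capped at 4 in both directions. The 32 upper rows turn blue and the 9 lower rows red in the DOX columns of all 4 populations, faintly for Usp18 on SM DOX 1 and Slc32a1 on the same array, and not at all for Ncf1 on HE1 DOX 1 and Ncf4 on HE1 DOX 2.

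The populations were next compared gene by gene. In all 4 populations each of the 32 falling genes was at least 1.5-fold lower with DOX, and 23 of them were at least 2-fold lower in each. The genes were chosen on these same arrays, so that the separation of the arrays, like the sizes above, was in part fixed by the choice and is a description. For 28 of the 32, every DOX array lay below every untreated array within each population, as did 61 (0.236%) of all genes tested. For 8 of the 9 rising genes every DOX array lay above, as did 69 (0.266%) of all genes. A lower sign in each of the 4 populations with measured probes was found for 7.99% of genes and a higher sign for 23.9%, so that a common sign alone was frequent. The median effect over the 32 genes was -2.08 for SM, -1.64 for HE1, -1.77 for HE2 and -2.41 for HP. HP held the strongest effect for 17 of them and HE1 the weakest for 16.

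No gene passed the test of a difference in DOX effect between the populations (limma interaction F test, 0 genes at an adjusted p under 0.05, lowest adjusted p = 0.99999, with 230 at an unadjusted p under 0.05). With the replicate pair as a block, added after seeing the data, there were 0 as well (lowest adjusted p = 0.94574), with 1197 at an unadjusted p under 0.05. Chance alone would give about 1295 genes at that p, so the test without the block gave fewer low p-values than chance would. Of the 41 alike genes, 2 had an unadjusted p under 0.05 without the block, against 230 of the 25902 genes tested. The first was Lilrb4a (unadjusted p = 0.00789, limma), with an effect of -1.65 in HE2, and in SM a fall of at least 7.67-fold, as its probe was not well above background there with DOX. The second was Ncf1 (unadjusted p = 0.0335, limma), with effects from -0.60 in HE1 to -3.74 in HP. With 2 or 3 arrays in a group, a p that misses the threshold does not show that the populations responded equally.

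**Figure D2:**
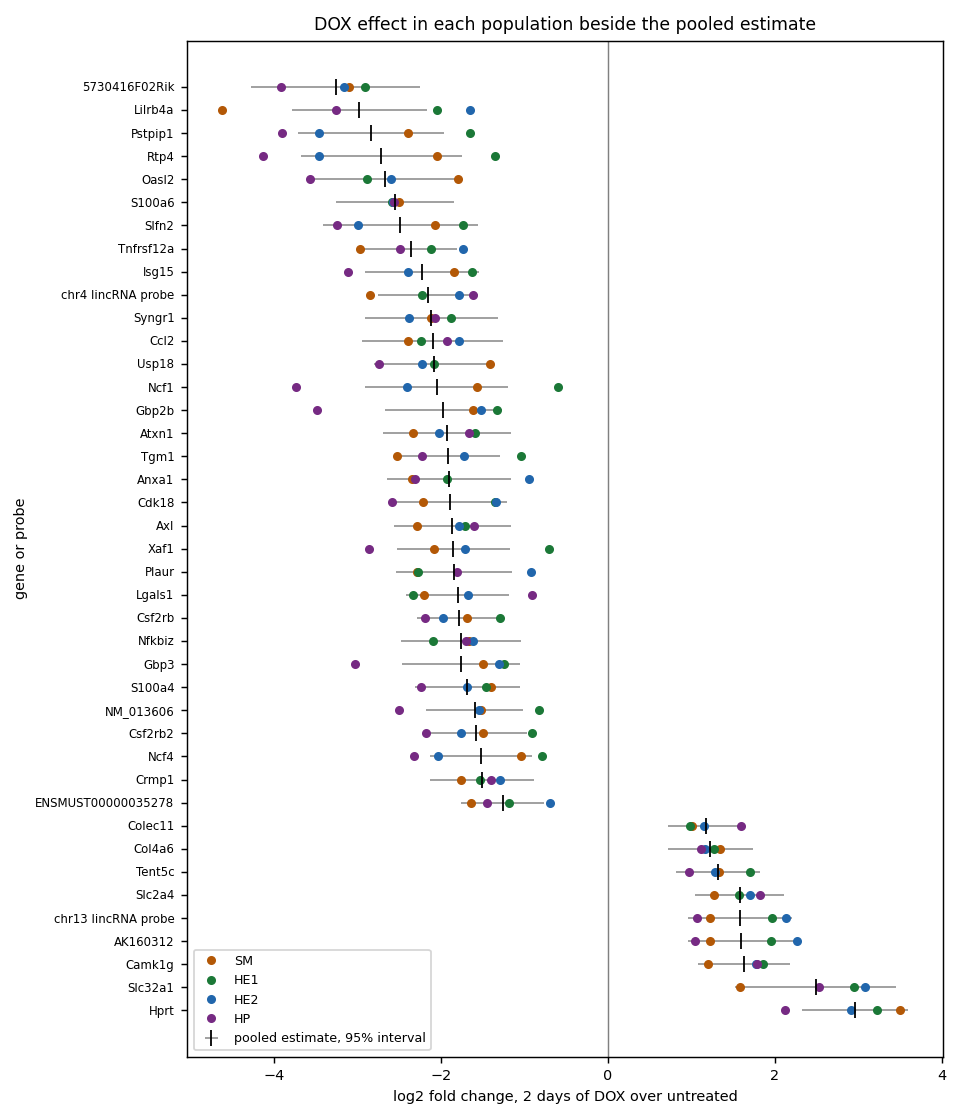
DOX effect (log2 fold change, 2 days of DOX over untreated) of each alike gene in SM, HE1, HE2 and HP cells (coloured points), with the pooled estimate and its 95% interval (black tick and grey line). S100a6 has nearly the same effect in all 4 populations, -2.50 to -2.59, while Ncf1 and Lilrb4a are spread out; the points of Lilrb4a and the chromosome 4 probe in SM, and of 5730416F02Rik and that probe in HE1, rest on DOX signals not well above background.

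The genes that fell alike are described in groups by what they are known to do, a grouping made after their values were seen and not tested as such. The first holds surface receptors, calcium-binding and secreted proteins of adhesion, migration and proteolysis. Tnfrsf12a, the receptor for the cytokine TWEAK, had levels of 3.92, 3.70 and 4.36 on untreated SM arrays and of 1.33 and 0.70 with DOX. In HE1 it went from 2.01 and 1.52 to -0.09 and -0.62, in HE2 from -0.43 and 0.25 to -1.48 and -2.19, and in HP from -0.30 and 0.88 to -2.0 and -2.40. The groups did not overlap in any population although its untreated level differed by 4.08 between SM and HE2, and the pooled effect was -2.36 ± 0.26 (SE, adjusted p = 0.00121), a 5.14-fold fall. This was the lowest p-value after Hprt.

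S100a6, a calcium-binding protein of motile cells, had the smallest spread of effects between populations among the 41 alike genes. Its levels were 6.91, 6.77 and 6.55 on untreated SM arrays and 4.66 and 3.83 with DOX, and 3.11 and 5.65 on untreated HP arrays against 1.42 and 2.22. The HP replicates were thus far apart from each other, and both lay above the DOX arrays. The effect was -2.50 for SM, -2.59 for HE1, -2.58 for HE2 and -2.56 for HP, and -2.55 ± 0.33 pooled (SE, adjusted p = 0.00317). Its neighbour S100a4, separated from it by 1 protein-coding gene on chromosome 3, fell by 1.68 on the log2 scale (adjusted p = 0.0257), and its 2 probes gave -1.68 and -2.22.

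Plaur, the receptor for the protease urokinase, fell from 2.77, 4.43 and 3.13 to 0.77 and 1.55 in SM, and from 2.00 and 2.85 to -0.39 and 0.70 in HE1. In HE2, where untreated arrays were at 1.24 and 2.53, the DOX arrays were at 0.93 and 0.99, close to the lower of the untreated arrays. Its pooled effect was -1.84 ± 0.33 (SE, adjusted p = 0.0257). Axl, a receptor tyrosine kinase that binds GAS6, had effects of -2.28 (SM), -1.71 (HE1), -1.78 (HE2) and -1.60 (HP), and fell by 1.87 in the pooled model. Anxa1, a phospholipid-binding annexin, and Lgals1, a secreted galectin, both had their highest untreated level in SM, at 6.70 and 7.89, and fell by 1.91 and 1.80 in the pooled model. Ccl2, a chemokine that attracts monocytes, fell by 2.10 (adjusted p = 0.0388).

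Interferon-inducible genes formed the second group. Such genes respond to signals from interferon receptors and encode antiviral proteins. Isg15, a ubiquitin-like protein, went from 2.76, 2.51 and 2.46 to 0.89 and 0.56 in SM, from 1.28 and 1.83 to -0.58 and 0.43 in HE1, from 1.95 and 3.05 to -0.46 and 0.68 in HE2, and from 2.95 and 4.94 to 0.70 and 0.95 in HP. No DOX array reached an untreated array of its population, and the pooled effect was -2.23 ± 0.33 (SE, adjusted p = 0.00724), or -2.01 with its other probe.

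Usp18, the protease that removes ISG15 from proteins, fell by 2.08 (adjusted p = 0.0179), but 1 SM array with DOX, at -0.35, lay among the untreated SM arrays at 0.48, -0.76 and -0.08. Oasl2, an oligoadenylate synthetase-like protein, fell by 2.67 and Rtp4, a transporter protein induced by interferon, by 2.71. The guanylate-binding GTPases Gbp2b and Gbp3, whose genes are direct neighbours on chromosome 3, fell by 1.97 and 1.76, most in HP (3.49 and 3.03). As their family is closely related in sequence, probes of one member may also read another. Xaf1, which binds the apoptosis inhibitor XIAP, fell by 1.85 and Slfn2, a Schlafen protein of lymphoid and myeloid cells, by 2.49. Rtp4, Gbp2b, Xaf1 and Slfn2 were not in the fixed list of interferon-inducible genes and were placed here after their values were seen.

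The gene lists used here and below were chosen with earlier results of these data known, so that their counts are a description. Of the interferon-inducible list, 31 of 33 genes matched to a probe were tested, and all 31 had a pooled effect below 0, where 43.0% of all genes tested did. Of these 22 had an unadjusted p under 0.05, where 4.52% of all genes were lower at that p, and 6 fell, where 0.170% did. The 6 were Isg15, Oasl2, Usp18, Gbp3, Ifit1 and Ifi202b, of which Ifit1 and Ifi202b were not measured in all populations. The median effect was -1.51 over the list and 0.09 over all genes tested, and the list's median was -0.86 with normexp background correction and -0.92 in the authors' values. By population it was -1.20 (SM), -0.65 (HE1), -0.95 (HE2) and -2.14 (HP). The summed relative signal of the 33 genes, in which bright genes weigh most, was apart between treatments only in HP, at 93.2 to 174 untreated and 44.8 to 45.1 with DOX. It was 61.2 to 77.7 and 43.3 to 64.1 in SM, 60.4 to 77.6 and 50.3 to 94.4 in HE1, and 39.2 to 84.0 and 47.6 to 70.8 in HE2. Among those not called, Irf7 had an effect of -1.65 (adjusted p = 0.314) and B2m of -0.02 (adjusted p = 0.985).

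**Figure D3:**
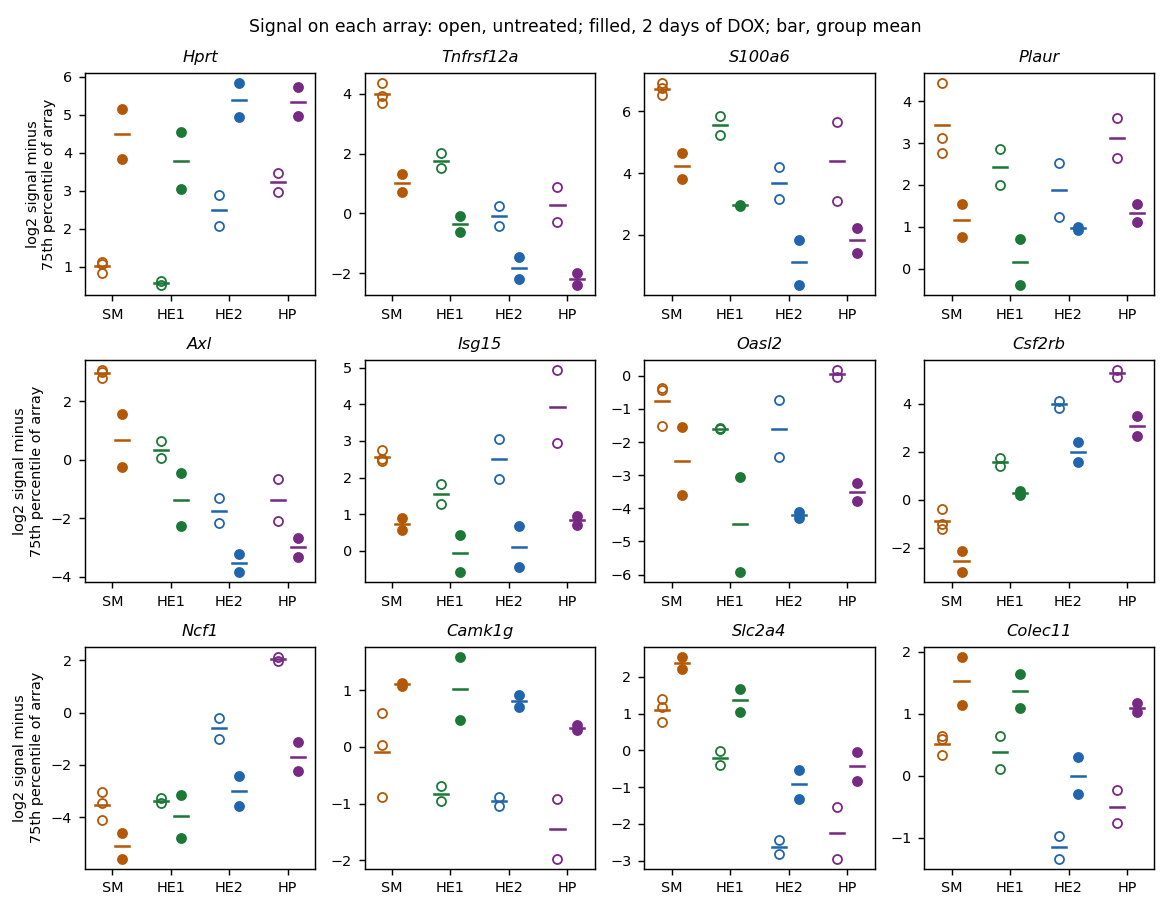
Level of 12 alike genes on each array (y axis, log2 signal relative to the array's 75th percentile) in the 4 populations, with open circles for untreated and filled circles for DOX arrays and bars for group means. In the falling genes Tnfrsf12a, S100a6, Plaur, Axl, Isg15, Oasl2 and Csf2rb every filled circle lies below the open circles of its population, though barely so for Oasl2 in SM; for Ncf1 the HE1 circles overlap.

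Genes of myeloid cells and their cytokine receptors formed the third group. Csf2rb, the beta chain shared by the receptors for IL-3, IL-5 and GM-CSF, had a mean level in the untreated populations that ran from -0.88 in SM to 1.59 in HE1, 3.99 in HE2 and 5.28 in HP. With DOX it was at -3.01 and -2.13 in SM, 0.37 and 0.21 in HE1, 2.42 and 1.60 in HE2 and 3.50 and 2.68 in HP, below the untreated arrays each time. Its pooled effect was -1.78 ± 0.24 (SE, adjusted p = 0.00388) and that of a second probe -1.02. Csf2rb2, a near copy whose probe may also read Csf2rb, fell by 1.58.

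Ncf4 and Ncf1, subunits of the phagocyte oxidase, fell by 1.52 and 2.05. Ncf4, Csf2rb2 and Csf2rb are consecutive protein-coding genes on chromosome 15. In HE1 cells the arrays overlapped for both oxidase genes, and Ncf1 was at -3.47 and -3.27 without and at -3.15 and -4.79 with DOX. Lilrb4a, an inhibitory receptor of leukocytes, fell by 2.98 (adjusted p = 0.00317). Pstpip1, an adaptor to the actin cytoskeleton in blood cells, fell by 2.84.

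Of 27 tested genes in the myeloid list 4 fell, against 0.170% of all genes, and 21 had an effect below 0, against 43.0% (median -0.87 against 0.09). The 4 were Csf2rb, Ncf1, Ncf4 and Lilrb4a, and Csf2rb2 and Pstpip1 are not in that list. The summed signal of its 31 genes, relative to the 75th percentile of each array, was 455 to 580 in untreated HP and 341 to 384 in HP with DOX, 117 to 191 and 125 to 166 in SM, 155 to 255 and 155 to 204 in HE1, and 245 to 327 and 179 to 288 in HE2. Of its genes, 19 to 31 were well above background on each array. Csf1r, Itgam, Mpo, Elane and Csf3r were so on all 9 untreated and 8 DOX arrays, Ptprc and Tyrobp on 9 and 7, Spi1 on 4 and 3 and Cybb on 1 and 1. Spi1 was too dim elsewhere to be tested, and its mean level was 1.30 in untreated HP and -1.89 in HP with DOX. In sorted bulk cells, fewer cells of a type and less RNA per cell cannot be told apart, and the part of contaminating cells in these changes was not tested. S100a4 is also in the list of fibroblast feeder genes, whose other 10 tested members were not called. The summed signal of all 12 genes of that list was 179 to 227 in untreated SM, 101 to 170 in SM with DOX, 49.4 to 94.9 and 31.9 to 52.0 in HE1, 6.25 to 6.92 and 4.38 to 6.51 in HE2, and 7.60 to 17.6 and 6.30 to 7.84 in HP. The part of these feeder genes in the fall of S100a4 was not tested.

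The other genes that fell alike were Cdk18, a cyclin-dependent kinase (pooled effect -1.89), Syngr1, a vesicle membrane protein (-2.12), Atxn1, a transcriptional co-repressor (-1.92), Tgm1, a transglutaminase (-1.91), Crmp1, which acts on the cytoskeleton in semaphorin signalling (-1.51), and Nfkbiz, a nuclear regulator of NF-κB target genes (-1.76). The uncharacterized transcript 5730416F02Rik had a pooled effect of -3.26 ± 0.48 (SE, adjusted p = 0.00724), but it was well above background on only 3 of 8 DOX arrays, with a fall of at least 4.55-fold in HE1, where no DOX array was well above background. Further probes without a gene name here were NM_013606 (-1.60), ENSMUST00000035278 (-1.26) and a long intergenic RNA probe annotated at chr4:88583425-88584070 (mm9), which fell by 2.15 and had 3 probes between -1.69 and -2.33. With DOX this probe was not well above background in SM or HE1, and its fall was at least 4.04-fold and 4.15-fold there.

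Genes called lower but not measured in every population included Glipr1, a secreted cysteine-rich protein, which fell by 2.51 (adjusted p = 0.00147) and in SM went from 2.78, 2.77 and 2.85 to -0.30 and -0.55. Spp1, the matrix protein osteopontin and a classical AP-1 target, fell by 2.62, but was well above background on only 4 of 8 DOX arrays, against 8 of 9 untreated ones. Ifit1 fell by 3.27, and was well above background on 8 of 9 untreated arrays and 1 of 8 DOX arrays, so that most DOX levels behind this value are not well above background. The others were Ifi202b, Lect2, Ifit3b, Prkg2, Pik3r5, B430306N03Rik, Ocln, Crym and NM_020008, and the 1 rise was Sod3, the extracellular superoxide dismutase (1.58), well above background on 2 of 9 untreated arrays. The 12 falling genes were well above background on 1 to 6 of the 8 DOX arrays, so that the sizes of these changes are inexact.

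The 8 rises apart from Hprt were smaller, with population medians of 1.25 (SM), 1.78 (HE1), 1.74 (HE2) and 1.36 (HP). Slc2a4, the insulin-responsive glucose transporter, rose from 1.18, 0.76 and 1.39 to 2.22 and 2.54 in SM, from -0.03 and -0.39 to 1.05 and 1.68 in HE1, from -2.44 and -2.81 to -1.31 and -0.52 in HE2, and from -2.95 and -1.55 to -0.83 and -0.04 in HP. The groups were apart in every population, and the pooled effect was 1.58 ± 0.25 (SE, adjusted p = 0.0141). Camk1g, a calmodulin-dependent kinase, rose by 1.63, Tent5c, a poly(A) polymerase, by 1.32 and Colec11, a soluble lectin of innate immunity, by 1.18.

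For a pair of these genes the probes disagreed. Slc32a1, the vesicular transporter of GABA, rose by 2.49 with 1 probe and had an effect of -0.14 with the other, and its SM arrays overlapped. Col4a6, a basement membrane collagen chain, rose by 1.23 with 1 probe and had 0.13 with the other. The remaining rises were AK160312 (1.60) and a long intergenic RNA probe on chromosome 13 at chr13:48620882-48643532 (mm9, 1.58), for which 6 probes ranged from 0.36 to 1.63.

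At the edge of the threshold, the last alike genes with a symbol were Ncf1 (adjusted p = 0.0482, limma) and Col4a6 (0.0487, limma). The next genes that had the same sign in all 4 populations and a 2-fold change were Tspan7 (effect 1.53, adjusted p = 0.0509, limma) and Ldb2 (1.32, adjusted p = 0.0511, limma), named here after their values were seen.

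Lists of related genes were then set beside all genes tested, without a set test. The lists were chosen with earlier results of these data known, so that their counts are a description and not independent support. Of all genes, 0.170% fell, 43.0% had an effect below 0 and the median was 0.09. Of 24 tested textbook AP-1 target genes, 6 fell, namely Tnfrsf12a, S100a6, S100a4, Plaur, Ccl2 and Spp1, and 18 had an effect below 0 (median -0.59). Of 22 vascular genes that the study named as bound by FOS and JUN, a list chosen on samples of this series, 21 had an effect below 0 (median -0.70), and Axl fell. Cdkn2a of that list, which encodes inhibitors of the cell cycle, had an effect of -1.31 ± 0.31 (SE) without passing the test (adjusted p = 0.150). In S100, annexin and galectin genes 4 of 20 fell (median -0.55), and in matrix genes and matrix proteases 1 of 30, Spp1 (median -0.51).

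Among AP-1 subunits 0 of 18 tested were called with limma (3 higher and 4 lower at an unadjusted p under 0.05), and 10 had an effect above 0. The lowest adjusted p was that of Batf3, at -1.88 ± 0.38 (SE, adjusted p = 0.0618). The probe of Fos had an effect of 0.82 (adjusted p = 0.489) and Jun of 0.67 (adjusted p = 0.428). The list of the TEAD and YAP factors of the Hippo pathway and their targets held 24 tested genes. Of 18 targets 11 had an effect below and 7 above 0 (median -0.41), and of 6 factors 1 and 5. Axl, which is also in the list of vascular genes, was the 1 gene called.

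Several lists had a median above that of all genes and held no called gene. Of all genes 57.0% had an effect above 0, and 6.08% did so at an unadjusted p under 0.05. Of 29 cell division genes 25 had an effect above 0 (median 0.59, 7 at an unadjusted p under 0.05, lowest adjusted p = 0.403). Mki67, the proliferation marker, had 0.46 ± 0.21 (SE, adjusted p = 0.465). Of 23 hematopoietic transcription factors 20 were above 0 (median 0.52, 5 at an unadjusted p under 0.05), with Bmi1 at 0.95 (adjusted p = 0.454) and Hoxb4 at 0.74 (adjusted p = 0.454), both genes of stem cell maintenance. The medians were 0.46 over 25 genes of the ATF4 and amino acid response, 0.46 over 17 mitochondrial genes and 0.43 over 28 endothelial genes. Smooth muscle contractile genes (14 tested, median -0.12), integrins (18, -0.04) and actin and adhesion linkers (28, -0.05) were below the median of all genes, 0.09. With median scaling, which moved the median of all genes to 0.29, these 3 medians were at 0.08, 0.16 and 0.16, again below it.

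**Figure D4:**
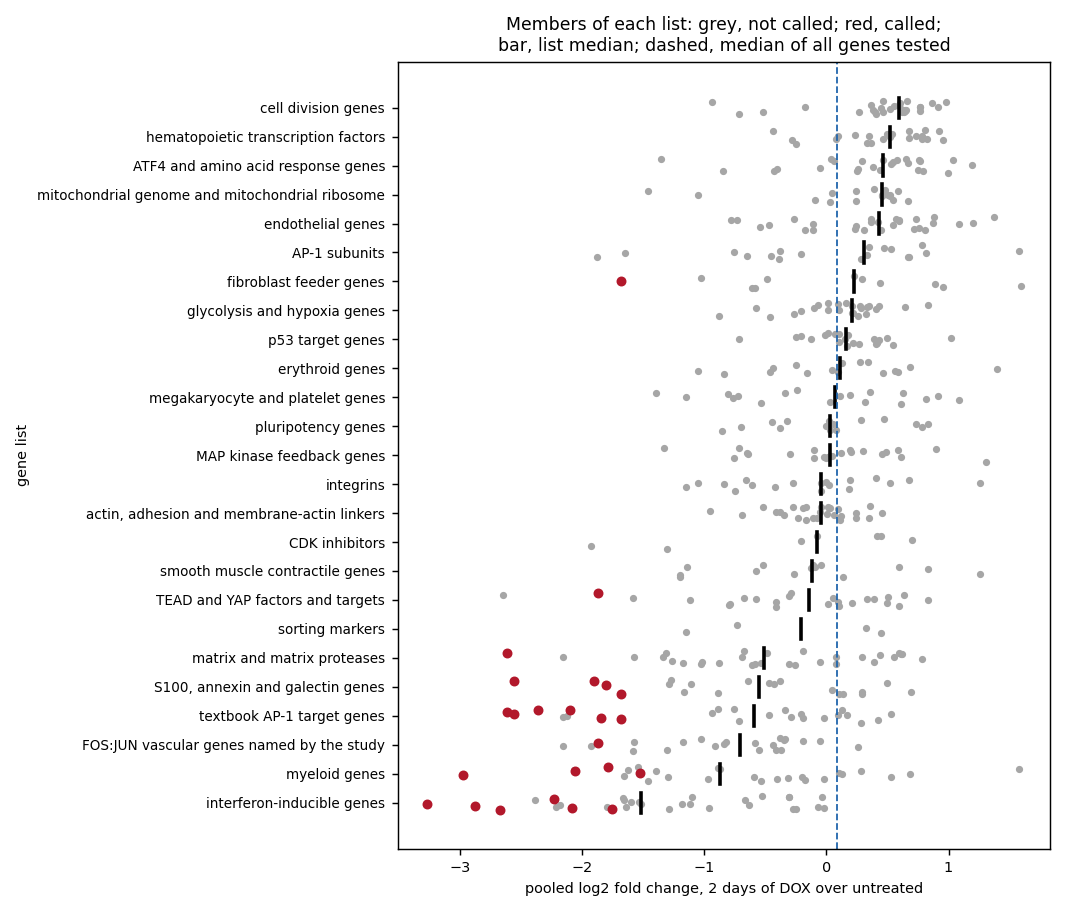
Pooled log2 fold change (x axis) of the tested members of each of 25 gene lists (rows, ordered by median), with red points for called genes, grey points for the others, a bar for the list median and a dashed line for the median of all genes tested, 0.09. The interferon-inducible list lies wholly below 0 with a median of -1.51, while the cell division list has a median of 0.59 and no red point.

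The regulatory DNA next to the alike genes was read for the letters of AP-1 and interferon-response motifs, as far as the RefSeq promoter table (GRCm38.p6) held them. It held 19 of the 29 falling genes with a symbol, and the 250 bases before each start were searched on both strands. The AP-1 letters TGANTCA stood in 2 of 19, Plaur and Xaf1, against 7.82% of all genes in that table. A pair of GAAA words 2 bases apart, as in interferon-stimulated response elements, stood in 5 of 19 (Gbp2b, Gbp3, Isg15, Ncf1 and Tgm1) against 3.46%. The TEAD letters GGAATG stood in 5 of 19 (Anxa1, Axl, Csf2rb2, Pstpip1 and Slfn2) against 14.4%, and the CRE letters TGACGTCA in 0 of 19 against 1.77%. Of 6 rising genes in the table, 0 held the AP-1 letters and 1, Colec11, the interferon-response letters. These are matches of letters, not sites shown to be bound, and enhancers farther away were not searched.

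The following stretches show the matches in capitals within up to 40 bases on each side, 5′ to 3′ on the strand of the gene. They are shown as the AP-1 matches and 4 of the 5 interferon-response matches among the falling genes. The Plaur stretch is chr7:24462374-24462460 (+), with the match 69 to 63 bases before the start, and that of Xaf1 is chr11:72301551-72301628 (+), with the match 38 to 32 bases before. The stretch of Isg15 is chr4:156200835-156200936 (-), with 3 overlapping matches 78 to 57 bases before, that of Gbp3 chr3:142559959-142560043 (+), that of Gbp2b chr3:142594670-142594759 (+) and that of Ncf1 chr5:134229658-134229747 (-).
Plaur, AP-1: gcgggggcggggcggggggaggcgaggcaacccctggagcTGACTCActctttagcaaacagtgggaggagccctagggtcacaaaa
Xaf1, AP-1: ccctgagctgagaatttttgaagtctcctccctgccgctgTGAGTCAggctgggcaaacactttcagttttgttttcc
Isg15, interferon response: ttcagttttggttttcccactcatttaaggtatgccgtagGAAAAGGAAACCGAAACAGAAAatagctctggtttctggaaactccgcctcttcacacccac
Gbp3, interferon response: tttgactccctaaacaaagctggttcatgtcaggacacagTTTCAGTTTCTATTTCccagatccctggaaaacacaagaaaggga
Gbp2b, interferon response: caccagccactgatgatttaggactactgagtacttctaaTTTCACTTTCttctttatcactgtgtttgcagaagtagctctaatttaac
Ncf1, interferon response: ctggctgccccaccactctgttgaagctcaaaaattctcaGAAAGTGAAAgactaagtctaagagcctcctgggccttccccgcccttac

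The alike genes were finally read on 8 arrays that had no part in choosing them and share no control with the pooled comparison, whole cultures not yet sorted into the 4 populations. Those named FLK1+ 5h had 5 h of DOX and those named d1 BC 1 day, each beside untreated cultures, with 2 arrays a group. After 5 h, 20 of the 29 falling genes measured there were lower with DOX, where 52.4% of all measured genes were, and 1 was at least 2-fold lower, where 1.15% were. The median effect was -0.40. After 1 day 25 of 29 were lower, where 36.9% of all genes were, and 17 were at least 2-fold lower, where 2.81% were. The median was -1.14. None of these genes was called in these smaller comparisons, and 8 of the 29 were lower at an unadjusted p under 0.05 after 1 day and 0 after 5 h (limma). With the replicate pair as a block, added after seeing the data, these were 14 and 1, and 0 were called.

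Of the 8 genes described in the first group, 8 had an effect below 0 after 1 day of DOX, 4 of them at an unadjusted p under 0.05 (limma) and 0 called. With the replicate pair as a block, added after seeing the data, all 8 were under that p (limma, highest 0.0406 for Lgals1), and 0 were called. Tnfrsf12a went from 5.27 and 4.80 to 2.34 and 3.69 (effect -2.02 ± 0.53, SE), Plaur from 5.28 and 4.67 to 3.14 and 2.78 (-2.01 ± 0.59) and Axl from 2.85 and 3.39 to 0.07 and 1.53 (-2.32 ± 0.71). Anxa1 had an effect of -1.96 ± 0.65. The 4 under that p only with the block were S100a6 (-1.42 ± 0.68), Ccl2 (-1.45 ± 0.80), S100a4 (-1.24 ± 0.62) and Lgals1 (-1.18 ± 0.60). The standard errors printed here are those of the fit without the block. Outside the group, the kinase gene Cdk18 had the largest day 1 effect of the alike falling genes, -2.59 ± 0.61.

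The interferon-inducible genes that fell alike had effects on both sides of 0 after 1 day. Isg15 was at 0.82 and -0.47 without and at 1.65 and 0.32 with DOX (effect 0.81 ± 0.68, SE, or ± 0.41 with the replicate block), and Usp18 had 0.00 ± 0.65 and Rtp4 0.07 ± 0.78. Xaf1 had -1.35 ± 0.63, with an unadjusted limma p of 0.0472, Oasl2 -0.48 ± 0.88 and Slfn2 -0.47 ± 0.87. Gbp3 and Gbp2b had effects below 0 at both times, -1.14 and -0.92 after 5 h and -1.19 and -0.89 after 1 day. Whether the groups of genes differ in their response at day 1 was not tested.

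Of the 9 rising genes, 4 were higher after 5 h, where 47.6% of all measured genes were, and 9 after 1 day, where 63.1% were. Hprt had an effect of 1.41 after 5 h and 3.62 after 1 day (limma adjusted p = 0.0860 at day 1). Col4a6 and Slc2a4 had effects of 1.05 and 1.06 at day 1, and the median over the 9 was 0.50.

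**Figure D5:**
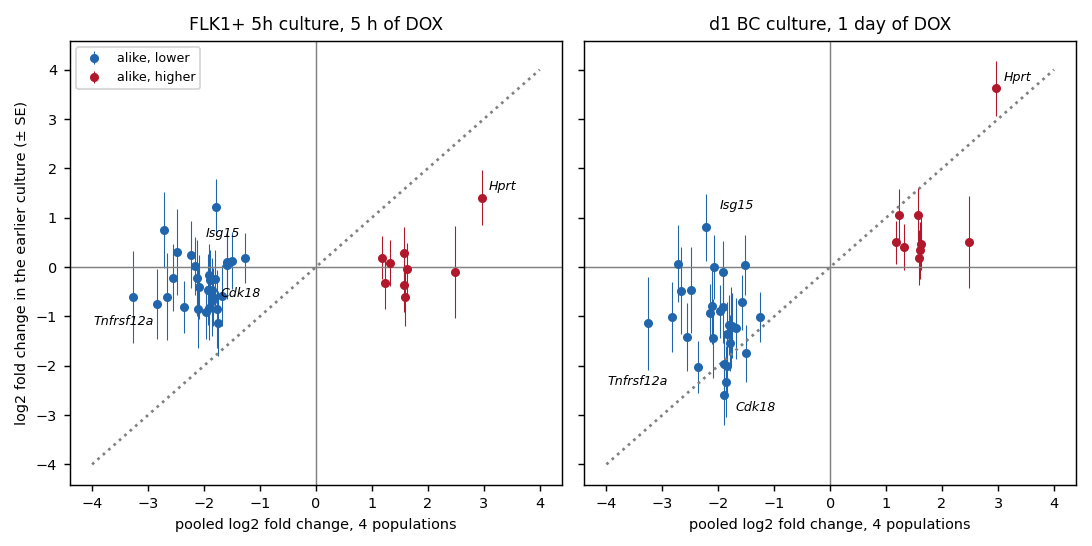
Log2 fold change with DOX in the FLK1+ 5h culture (left) and the d1 BC culture (right) on the y axes, with standard errors, against the pooled log2 fold change of the 4 sorted populations on the x axes, for the alike genes measured there; the dotted line marks equal effects. After 5 h most points lie near 0, and after 1 day 25 of 29 falling genes lie below 0, Isg15 being an exception.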

How the data were processed

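The authors hybridized Cy3-labelled RNA to one-colour Agilent mouse arrays. They deposited spot intensity values, background-subtracted within each array by Feature Extraction (10.7.1.1 per the labels), and a table of log2 values after their own between-array normalization in limma. Here the processed signal of non-outlier spots was averaged per probe, taken to log2 and reduced by the array's 75th percentile, and a gene with several probes was read from the one whose mean over these 17 arrays was highest. Gene symbols came from RefSeq and covered 20145 of 37208 features. Genes were tested when well above background on at least 8 of 17 arrays. The common DOX term was fitted with population as a block in limma 3.58.1 (R 4.3.3), with 12 residual degrees of freedom. The 8 arrays of the earlier cultures were fitted with 1 mean per group over all 27 arrays. The model was tested on simulated data. Array number limits the precision.

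Members and gene lists were chosen with earlier results of these data known. Named are Hprt, the 15 largest falls and rises with a symbol, up to 4 genes a list by lowest p, and genes named by the study; other called genes were added after their values were seen. Same-numbered DOX and untreated arrays deviated together within each population (correlation 0.264 to 0.641), so the numbers pair those samples. In the day 1 culture the correlation was 0.595, but at 5 h it was -0.18. They also share a slide, and each slide was scanned on a day of its own. No array was a copy of another (0 identical pairs). Alternatives were other background corrections, scalings, filters, probe averages, blocks, weights, group means and thresholds, and leaving out arrays or populations. Some genes are not reported here.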

Additional observations from a re-analysis of the deposited data

Results flagged for a closer look

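Among the genes followed, 3 that were not called in the pooled comparison had arrays that separated in opposite directions in different populations, and none of the 3 passed the interaction test over all genes (limma, lowest unadjusted p = 0.0343 for Egr2, lowest adjusted p of any gene 0.99999). With 2 or 3 arrays in a group, arrays can separate by chance, and the share of all genes with such arrays was not counted. Egr2, an early growth response factor, had effects of 1.64 in SM, 2.11 in HE1 and 2.18 in HE2 and of -0.77 in HP. Gfi1, a repressor of the endothelial programme, had -1.18 in HE1, 1.83 in HE2 and 1.37 in HP. Wt1, a zinc finger regulator of mesoderm, had 0.42 in SM and -1.51 in HE1.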

How the results depend on the processing

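In 38 alternatives (21 with other samples, scalings, filters, blocks and weights, 17 leaving out 1 array), the pooled effect kept its direction for all 41 alike genes, or for the 29 tested where all 17 arrays had to be above background. The genes were chosen for the same sign in every population on these same arrays. Their direction was thus in large part fixed by the choice and is a description. The counts did not hold. They follow as calls in all, with rises in brackets, and alike genes in all, against 54 (10) and 41. They were 34 (11) and 30 with quantile normalization, 7 (1) and 5 with median scaling, 32 (3) and 21 without a filter on dim probes, and 31 (11) and 31 with detection on all 17 arrays. With the replicate block for the pairing they were 136 (52) and 92, with the slide as a fixed block 171 (68) and 122, as a random block 198 (64) and 134, and with array quality weights 361 (111) and 266. An unweighted mean of the 4 effects gave 25 (1) and 18 over 17 arrays and 88 (21) and 63 over 27. Slide A alone gave 0 and 0, with Hprt at 2.46 (limma adjusted p = 0.99979), and slide B alone 131 (24) and 121. They were 3 and 2 without SM, 22 and 18 without HE1, 7 and 7 without HE2, and 3 and 3 without HP, 12 and 9 at an adjusted p under 0.01, and 34 (7) and 25 without both SM arrays of pair 2, a choice made after seeing the data. Genes whose effect differed between populations numbered 0, and 0 with the replicate block (lowest adjusted p = 0.94574), also added after seeing the data. Fits without a population or slide have fewer arrays; for the others the cause was not tested. The median of all genes, 0.09, was -0.03 with normexp and 0.29 with median scaling.

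Leaving out 1 array gave 20 to 59 calls, 14 to 44 alike genes and 2.77 to 3.10 for Hprt. Falls were 17 to 48, of which 11 to 34 alike, and rises 3 to 17 and 3 to 16 against 10 and 9. Rises numbered 17 without SM DOX 1, 11 without untreated SM 2 or HE1 DOX 1, 9 without untreated HE1 1, 7 without HE1 DOX 2, 6 without HE2 DOX 1, 5 without untreated HE2 1, 4 without untreated SM 1, SM 3 or HP 2 or DOX SM 2 or HP 1, and 3 without untreated HE1 2, HE2 2 or HP 1 or DOX HE2 2 or HP 2. Calls in all moved over 1.5 times without untreated SM 3 (33), HE1 2 (31), HE2 2 (23), HP 1 (31) or HP 2 (22), and without the DOX arrays SM 2 (22), HE2 2 (26), HP 1 (22) or HP 2 (20). With the replicate block, 14 rather than 8 falling genes were lower at an unadjusted p under 0.05 after 1 day and 1 rather than 0 after 5 h. At 5 h same-numbered arrays deviated in opposite directions (correlation -0.18), and with their numbers crossed there was 1 as well. In the day 1 culture 11 rather than 17 falling genes were 2-fold lower with normexp, and at 5 h 1 rather than 4 rising genes was higher with quantile normalization, median scaling or the authors' values. Among genes not called, the pooled log2 fold change of Runx1, 0.08, was -0.16 with quantile normalization, -0.13 in the authors' values, -0.0765 with the mean of its probes, -0.37 on slide A, -0.13 without HE1, -0.0038 without the SM arrays of pair 2, and -0.16 to 0.34 without 1 array. Myo1e, -0.35, was 0.30 on slide A and 0.014 without SM, Polk, -0.71, was 0.13 on slide A, and Ccnb1, 0.64, was -0.22 with the mean of its probes.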
